A study of Mus musculus and Homo sapiens with 8 samples.

Results

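Matrix metalloproteinases (MMPs) are zinc-dependent enzymes that cut the proteins of the extracellular matrix, and tissue inhibitors of metalloproteinases (TIMPs) bind their active sites and block them. Most MMPs are secreted as inactive precursors, whose activity then depends on activators outside the cell and on the TIMPs present. In bone, osteoclasts dissolve the mineral with acid and degrade the exposed matrix with cathepsin K and MMPs, of which MMP9 and the membrane-bound MMP14 are the ones best known in this cell. The transcripts described here are 7 MMP genes (Mmp9, Mmp2, Mmp8, Mmp13, Mmp14, Mmp12 and Mmp19) and 3 TIMP genes (Timp1, Timp2 and Timp3), taken by symbol from the 25668 rows of the mouse count table. All 10 had a row and all 10 passed the filter on low counts.

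The 6 mouse libraries came from bone marrow of wild-type C57BL/6 mice aged 6 weeks. In 3 of them the cells were macrophages kept in M-CSF, the growth factor of this lineage, at 50 ng/ml. Both groups carry the label of no treatment. In the other 3 the cells were osteoclasts, made by re-plating such macrophages after 2 days of M-CSF and adding RANKL, the signal from bone cells that turns precursors into osteoclasts, at 100 ng/ml, with M-CSF at the same dose. The osteoclast cultures also ran on in DMEM with fetal bovine serum, so RANKL, culture time and medium cannot be told apart as sources of a difference. Whether the replicates are separate mice or separate wells is not stated, and the p-values therefore reflect variation among these libraries alone, some or all of it possibly technical. The series also holds human breast cancer cell libraries, which were not used here.

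Libraries held 16743849 to 22587509 counts. Levels below are in CPM, in which counts are set relative to the size of their library. By these totals 3 counts correspond to 0.133 to 0.179 CPM, while the levels use library sizes after TMM scaling. The labelled cell types were checked against markers. All 9 osteoclast markers, Ctsk, Acp5 and Calcr among them, were called higher in osteoclasts, against 32.3% of all genes tested. Their summed level was 54.4 to 59.1 CPM in macrophages and 3561 to 3789 CPM in osteoclasts. Macrophage markers such as Adgre1, Csf1r and Cd68 were high in both groups, with sums of 7547 to 7712 CPM in macrophages and 8875 to 9280 CPM in osteoclasts. Of these 9 markers 3 were called higher in osteoclasts (Adgre1, Cd14 and Itgam) and 6 lower, against 32.3% and 31.4% of all genes tested. Among the lower ones, Mrc1 changed by -1.32 and Cx3cr1 by -1.22 on the log2 scale. Macrophage library 1 stood apart. Its 13 stromal and osteoblast markers summed to 452.6 CPM, against 20.6 and 15.1 CPM in the other macrophage libraries and 25.2 to 42.0 CPM in osteoclasts. Osteoclast library 2 held 4158 CPM of the nuclear RNA Malat1, against 1105 to 1464 CPM in the other 5 libraries. Across genes, osteoclast library 2 also differed from osteoclast libraries 1 and 3 by more than any other replicate pair did. Results that rest on macrophage library 1 are given with and without it.

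Several of these genes sit side by side on mouse chromosome 9, and proximal promoters from that cluster are shown. All 5 of its genes that were tested were called higher in osteoclasts, against 32.3% of all genes tested. Mmp10, 1 of them, had only 4, 0 and 2 counts in macrophages and 12, 15 and 24 in osteoclasts. It passed the filter on low counts only through its osteoclast libraries, so its call adds little to that share. The sequences are RefSeq's (build GRCm38.p6, plus strand), 250 bases each, and end at the base before the annotated transcript start. Capitals mark the AP-1 motif TGANTCA and the TATA motif TATAAA, which did not overlap each other.
Mmp13, chr9:7272264-7272513: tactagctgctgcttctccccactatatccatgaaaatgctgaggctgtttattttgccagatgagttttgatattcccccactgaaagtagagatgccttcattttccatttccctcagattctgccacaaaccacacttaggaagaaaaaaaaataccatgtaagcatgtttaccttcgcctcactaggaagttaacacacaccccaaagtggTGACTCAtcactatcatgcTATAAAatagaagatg
Mmp12, downstream start, chr9:7347124-7347373: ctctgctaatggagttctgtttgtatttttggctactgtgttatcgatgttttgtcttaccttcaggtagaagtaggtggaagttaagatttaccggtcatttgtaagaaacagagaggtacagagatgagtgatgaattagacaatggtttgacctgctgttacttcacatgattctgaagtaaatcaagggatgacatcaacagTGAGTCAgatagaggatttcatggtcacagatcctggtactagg
Mmp10, chr9:7502092-7502341: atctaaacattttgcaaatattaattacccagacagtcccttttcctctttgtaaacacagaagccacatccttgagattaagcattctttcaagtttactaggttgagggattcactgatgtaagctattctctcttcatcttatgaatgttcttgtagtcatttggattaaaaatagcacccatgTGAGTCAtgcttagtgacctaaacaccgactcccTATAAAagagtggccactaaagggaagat
Mmp8, chr9:7558179-7558428: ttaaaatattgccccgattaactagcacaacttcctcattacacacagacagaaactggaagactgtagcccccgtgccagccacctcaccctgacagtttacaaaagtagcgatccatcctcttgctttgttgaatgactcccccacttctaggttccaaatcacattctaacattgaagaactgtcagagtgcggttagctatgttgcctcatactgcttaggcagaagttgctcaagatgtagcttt
The AP-1 motif (TGANTCA, searched on both strands) began 35 bases before the start of Mmp13, 44 bases before the downstream start of Mmp12 and 63 bases before that of Mmp10. It was not in the printed window of Mmp8, nor in the windows of the upstream Mmp12 start and of Mmp27, which are not printed. The motif occurs in 6.75% of all 32851 promoter windows of this length. The window of Mmp3, not printed, held both motifs, AP-1 46 bases before the start. The TATA motif (TATAAA, searched in the direction of the gene) also lay in the windows of Mmp13 and Mmp10, and 7.59% of all windows hold it. Of the 10 genes, 7 had a promoter entry, and Mmp14, Timp1, Timp2 and Timp3 held neither motif in these letters. Mmp9, Mmp2 and Mmp19 had no entry. A match describes the letters only.

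Osteoclasts carried more transcript of all 7 MMPs and of Timp2, though the calls of Mmp2 and Timp2 did not hold in every fit. Levels are TMM-scaled CPM. Genes were tested with edgeR's quasi-likelihood test with Benjamini-Hochberg adjustment over all 13247 genes tested at a threshold of 0.05, and rose and fell are used for genes past it. Of the 10 genes 8 rose and 0 fell, against 32.3% and 31.4% of all genes tested, and 7 of the 10 rose and 0 fell by at least 1 on the log2 scale, against 9.35% and 6.61% of all genes. Their median log2 fold change was 1.75, against -0.00398 for all genes tested. Timp1 and Timp3 did not pass. Without macrophage library 1 all 10 rose, while 31.4% of 13545 genes tested rose and 29.2% fell, and their median was 1.99. The groups did not overlap for 8 of the 10 genes with all libraries, osteoclasts being higher each time, against 34.2% of all genes (68.1% in either direction). Each library measures RNA of a whole culture, so fewer cells of a type and less RNA per cell cannot be told apart. How the libraries were scaled shifted the balance over all genes: TMM put 50.7% of calls on the higher side, equal totals 28.9% and the deposited scale 32.2%. The last 2 scalings put the median gene at -0.22 and -0.19 on the log2 scale, so changes under that size are relative to the typical gene.

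**Figure D1:**
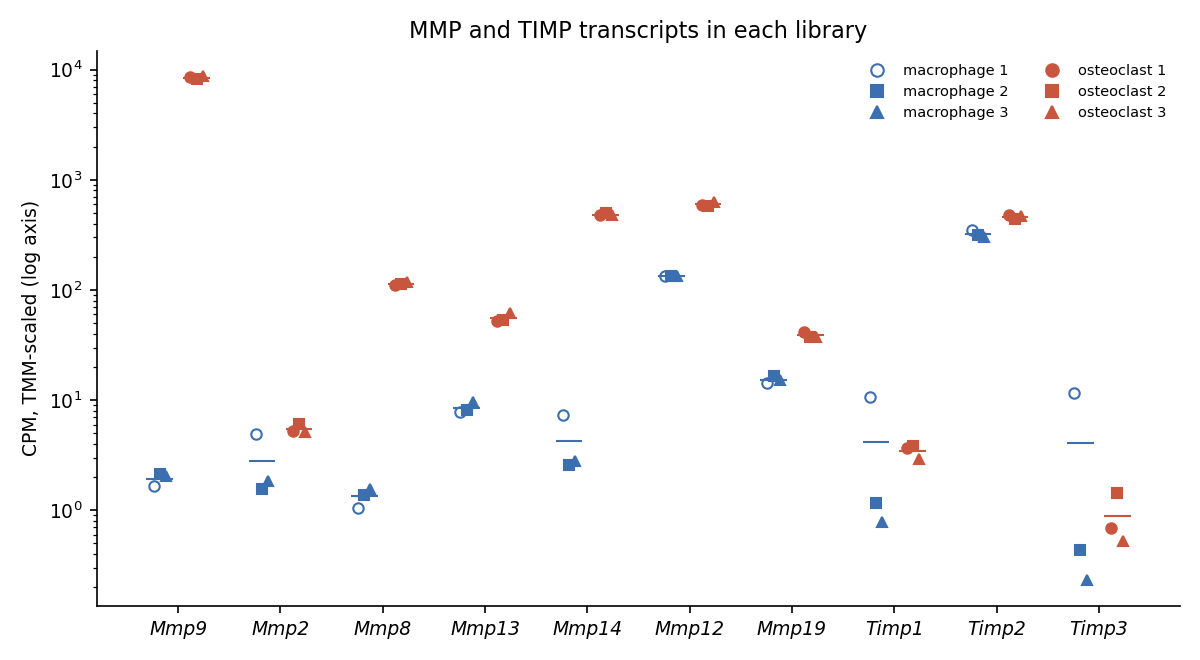
Level of each gene in each library, in TMM-scaled CPM on a log axis; blue marks macrophages, red osteoclasts, symbols the replicate, the open circle macrophage library 1, and short lines the group means (n = 3). The osteoclast points lie above all macrophage points for 8 genes, and macrophage library 1 is the highest of all 6 libraries for Timp1 and Timp3.

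The gelatinases, which cut denatured collagen and basement membrane collagen, are Mmp9 and Mmp2. Mmp9 was at 1.66, 2.12 and 2.03 CPM in macrophage libraries 1 to 3, from 30 to 49 counts, and at 8514, 8154 and 8764 CPM in osteoclast libraries 1 to 3, from 137174 to 182965 counts. Every osteoclast library was far above every macrophage library, the ratio of the group means being 4377, and the replicates of a group lay close together. Mmp9 rose by 12.08 on the log2 scale (SE 0.085, adjusted p = 1.91e-17, edgeR), the largest fold change of the 13247 genes tested in this fit. It took 0.755 to 0.810% of all counts in osteoclast libraries, where its rank among all rows was 5 in library 1 and 6 in libraries 2 and 3. In macrophages its rank ran from 10753 to 11167. Mmp9 lies on chromosome 2 from 164940780 to 164955850 (mm10, plus strand), with 15 merged exons.

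Mmp2, the gelatinase that MMP14 activates, stayed low in both groups. It was at 4.92, 1.56 and 1.84 CPM in macrophages and at 5.19, 6.00 and 5.17 CPM in osteoclasts. The groups did not overlap, but macrophage library 1 lay just under the osteoclasts and at 2.89 times the mean of the other macrophage libraries. Mmp2 rose by 1.01 (SE 0.32, adjusted p = 0.0153, edgeR). This call rested on which macrophage libraries entered: the log2 fold change was 1.68 without macrophage library 1 (adjusted p = 4.14e-06), but 0.72 without library 2 (adjusted p = 0.0747) and 0.79 without library 3 (adjusted p = 0.0781), and DESeq2 gave 0.99 (adjusted p = 0.0905). Mmp2 lies on chromosome 8 from 92827291 to 92853420 (plus strand).

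The collagenases, which cleave intact fibrillar collagen, are Mmp8 and Mmp13. Mmp8, best known from neutrophil granules, was at 1.05, 1.39 and 1.57 CPM in macrophages and at 109.9, 112.8 and 117.9 CPM in osteoclasts. It rose by 6.39 (SE 0.096, adjusted p = 9.63e-15, edgeR), an 85.1-fold ratio of the group means. Of 12 neutrophil markers listed 8 had a row. The granule genes Mpo, Elane and Prtn3 and the alarmin gene S100a9 had 0 or 1 count in each of the 6 libraries. The granule gene Camp had 0, 0 and 3 counts in macrophages and 10, 12 and 4 counts in osteoclasts and did not pass the filter on low counts. The neutrophil list summed to 26.4 to 28.1 CPM in macrophages and 40.4 to 42.7 CPM in osteoclasts. Csf3r alone, a cytokine receptor gene, gave 26.4 to 27.8 CPM in macrophages and 23.6 to 24.6 CPM in osteoclasts. The alarmin gene S100a8 rose, from 0, 4 and 3 counts to 306, 297 and 332 counts. The part of neutrophils in the Mmp8 result was not tested.

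Mmp13, or collagenase-3, was detected in macrophages already, at 7.80, 8.11 and 9.54 CPM. Osteoclasts had 52.6, 53.3 and 61.2 CPM, and no library of one group reached the other. The gene rose by 2.71 (SE 0.089, adjusted p = 1.35e-11, edgeR). Mmp13 spans 7272514 to 7283331 of chromosome 9 and Mmp8 spans 7558456 to 7568485, both on the plus strand.

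Mmp14, the membrane-anchored MMP that activates MMP2 at the cell surface, showed the second largest change of the 10. Its level was 7.36, 2.6 and 2.81 CPM in macrophages and 476.5, 497.0 and 476.4 CPM in osteoclasts. The osteoclast libraries differed by little, while macrophage library 1 held 2.72 times the mean of the other macrophage libraries. Mmp14 rose by 6.89 (SE 0.19, adjusted p = 2.59e-12, edgeR), and by 7.48 without macrophage library 1 (SE 0.074, adjusted p = 1.38e-17). It lies on chromosome 14 from 54431612 to 54445364 (plus strand).

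Mmp12, the macrophage elastase, was the most abundant of the MMPs in macrophages, where it had 134.6, 133.7 and 133.5 CPM. In osteoclasts it had 595.3, 581.0 and 626.5 CPM. It rose by 2.17 (SE 0.045, adjusted p = 1.60e-13, edgeR), the smallest standard error of the 10. Mmp12 shares 157 exon bases with Mmp1b on the opposite strand, which had no row in the table used. Mmp19, an MMP first known from rheumatoid synovium in humans, was at 14.3, 16.5 and 15.2 CPM in macrophages and at 41.5, 37.3 and 37.3 CPM in osteoclasts. It rose by 1.33 (SE 0.072, adjusted p = 2.41e-09, edgeR). Mmp19 shares 789 exon bases with Tmem198b on the opposite strand, which had 122 to 139 counts in macrophages and 91 to 127 in osteoclasts. Whether counting used strand is not stated, so reads of such pairs may not have been told apart. Mmp12 lies at 7344381 to 7369499 of chromosome 9 and Mmp19 at 128790910 to 128800824 of chromosome 10.

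Of the inhibitors, Timp2, which inhibits MMPs broadly and also links MMP14 to the MMP2 precursor, was abundant in both groups, at 348.8, 316.9 and 305.4 CPM in macrophages and 476.6, 436.2 and 471.9 CPM in osteoclasts. It rose by 0.51 (SE 0.056, adjusted p = 3.04e-06, edgeR). On the deposited scale, which does not correct for total counts, the estimate was 0.34 and did not pass (adjusted p = 0.114), and with equal totals it was 0.29. Timp2 made up 94.05 to 99.67% of the TIMP counts of every library. It spans 118301069 to 118355740 of chromosome 11 (minus strand).

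Timp1, a secreted inhibitor, was at 10.6, 1.17 and 0.783 CPM in macrophages and at 3.65, 3.80 and 2.92 CPM in osteoclasts. Macrophage library 1 was above all osteoclasts and the other macrophage libraries below them, so the groups overlapped. With all libraries Timp1 had a log2 fold change of -0.22 (SE 0.67, adjusted p = 0.79, edgeR). Without macrophage library 1 it rose by 1.81 (SE 0.27, adjusted p = 5.00e-05, edgeR), on 27 and 17 macrophage counts against 61 to 64 osteoclast counts. Timp1 lies on chromosome X from 20870166 to 20874735, within Syn1 of the opposite strand, with which it shares 0 exon bases.

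Timp3, the TIMP that binds to the matrix, had 208, 10 and 5 counts in macrophages and 12, 24 and 11 counts in osteoclasts. Apart from macrophage library 1 it was near the limit of detection, at 0.230 to 1.43 CPM. Its log2 fold change was -2.17 (SE 1.05, adjusted p = 0.0884, edgeR) with all libraries. It was 1.35 without macrophage library 1 (SE 0.55, adjusted p = 0.0459, edgeR), -2.73 without macrophage library 2 (adjusted p = 0.0334) and -2.74 without macrophage library 3 (adjusted p = 0.024), so the direction and the call of Timp3 depended on macrophage library 1. With both macrophage library 1 and osteoclast library 2 left out, the value was 0.83 (adjusted p = 0.172). Timp3 shares 1733 exon bases with Syn3 on the opposite strand, which had 3 to 5 counts in every library. It spans 86300372 to 86349506 of chromosome 10 (plus strand).

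**Figure D2:**
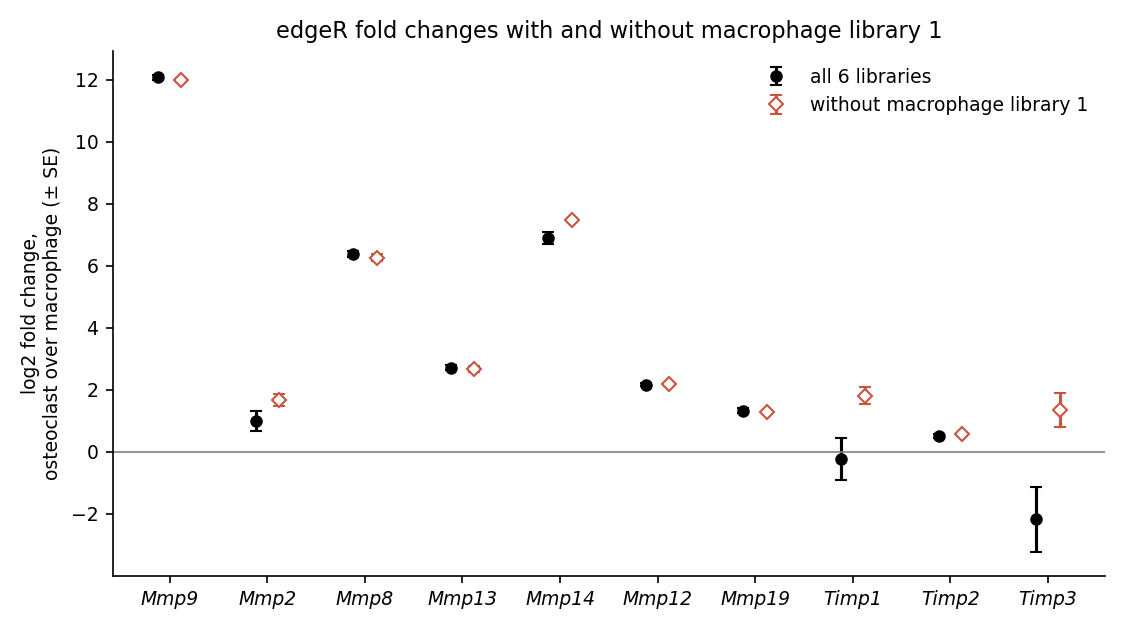
edgeR log2 fold change of osteoclasts over macrophages with its SE for each gene, from all 6 libraries (filled circles) and without macrophage library 1 (open diamonds). Timp1 moves from -0.22 to 1.81 and Timp3 from -2.17 to 1.35. Mmp9, Mmp2, Mmp8, Mmp13, Mmp14, Mmp12, Mmp19 and Timp2 move by less than their distance from 0.

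Set against the other macrophage libraries, macrophage library 1 divided the 10 genes. Timp3 was 34.7 times and Timp1 10.8 times the mean of macrophage libraries 2 and 3, and Mmp2 and Mmp14 were 2.89 and 2.72 times that mean. The other 6 genes lay between 0.712 (Mmp8) and 1.12 (Timp2) times the mean. Over all 13247 genes tested the median ratio was 0.999, and 1.83% of genes were above 2-fold and 0.483% above 10-fold. Of 9 stromal and osteoblast markers with counts in the other macrophage libraries, 7 were above 10-fold, up to 58.7-fold for the collagen gene Col3a1, and Runx2 was at 1.04-fold. Of the 13 markers with a row, Sp7, Bglap and Lum had 0 counts in every macrophage library, and Bglap and Sp7 at most 3 counts in an osteoclast library. Dcn, a matrix proteoglycan gene, had 12, 0 and 0 counts in macrophages but 162, 172 and 246 counts in osteoclasts. Of the 7 markers tested 1 rose and 4 fell, against 32.3% and 31.4% of all genes tested. Without macrophage library 1, 3 rose and 1 fell, against 31.4% and 29.2% of all genes tested. Whether stromal cells gave the Timp1, Timp3, Mmp2 and Mmp14 counts of that library was not tested.

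**Figure D3:**
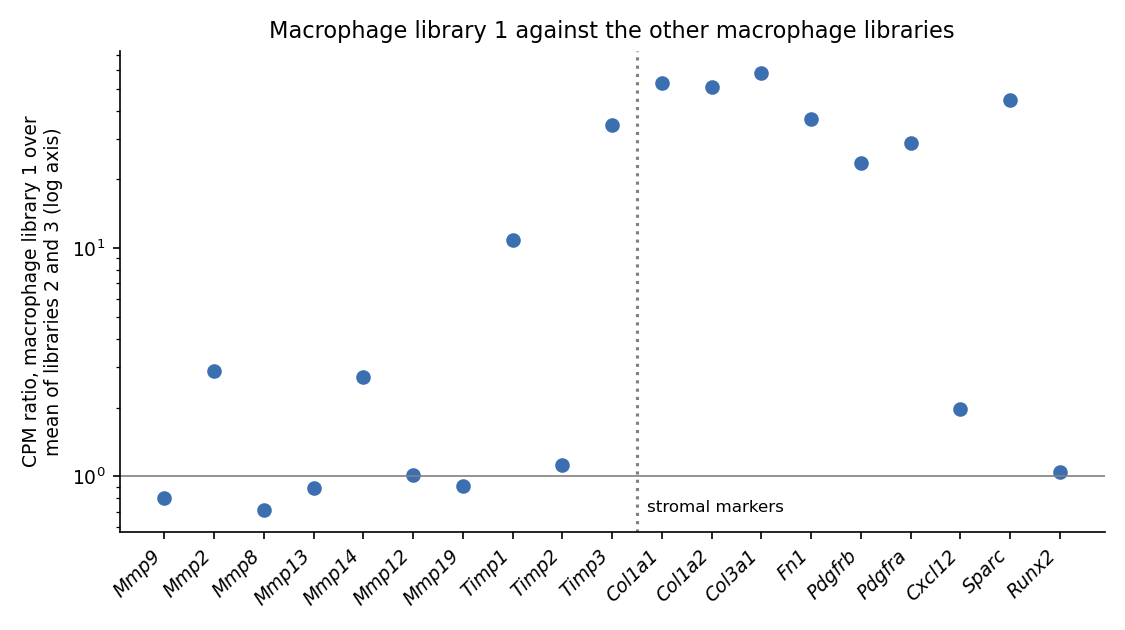
Ratio of the CPM in macrophage library 1 to the mean of macrophage libraries 2 and 3, on a log axis, for the 10 genes (left of the dotted line) and the 9 stromal markers with a ratio (right). Timp3 and Timp1 lie at 34.7 and 10.8, Mmp2 and Mmp14 near 3 and the other 6 genes near 1, the grey line.

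Levels of different genes were compared per kilobase of merged exons (GENCODE M21), which makes them comparable between genes as far as that exon length is the one transcribed. In osteoclasts Mmp9 led with 2395 ± 86.7 CPM per kilobase (SD, n = 3) and was number 12 of 25462 genes with a length. Timp2 followed at 118.5 ± 5.67 CPM per kilobase. Mmp12 (83.0 ± 3.22) and Mmp14 (81.1 ± 2.00 CPM per kilobase) came next, and these neighbours did not differ beyond their spread. Mmp8 (46.8), Mmp13 (20.8), Mmp19 (10.9), Timp1 (3.90), Mmp2 (1.62) and Timp3 (0.108 CPM per kilobase) followed, each separated from the next by more than the SDs of both. In macrophages the order opened with Timp2 at 83.1 ± 5.76 and Mmp12 at 18.5 ± 0.0833 CPM per kilobase. Timp1 (4.70 ± 6.24), Mmp19 (4.34 ± 0.312) and Mmp13 (3.17 ± 0.347 CPM per kilobase) came after them, and the spread of Timp1 covered Mmp19 and Mmp13. Without macrophage library 1 the mean of Timp1 was 1.10 CPM per kilobase, below Mmp19 (4.49) and Mmp13 (3.30), and that of Timp3 was 0.0408 CPM per kilobase. With all libraries the other 5 genes were between 0.498 and 0.823 CPM per kilobase, and their order lay within the spread between libraries. Timp3 was among them only through macrophage library 1. Without it Mmp8, Mmp9, Mmp2 and Mmp14 were between 0.454 and 0.609 CPM per kilobase, above Timp3.

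The 7 MMPs together took 0.0179 to 0.0185% of all counts in macrophages and 0.875 to 0.932% in osteoclasts. Mmp12 supplied 78.4 to 80.55% of the MMP counts of macrophages and 6.08 to 6.21% of those of osteoclasts, where Mmp9 supplied 86.4 to 86.9%. The 3 TIMPs took 0.0329 to 0.0400% of counts in macrophages and 0.0409 to 0.0446% in osteoclasts.

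Ratios of an enzyme to an inhibitor within a library do not depend on how libraries are scaled to each other. The log2 ratio of Mmp14 to Timp2 counts was -5.56, -6.92 and -6.75 in macrophage libraries 1 to 3 and -0.000345, 0.19 and 0.01 in osteoclast libraries 1 to 3, so that both genes had about equal counts in osteoclasts. The difference was 6.48, and 6.90 without macrophage library 1. The ratio of Mmp9 to Timp1 differed by 11.41 on the log2 scale and that of Mmp9 to Timp3 by 12.49, and by 10.16 and 10.69 without macrophage library 1. For these 3 ratios the groups did not overlap and the exact two-sided permutation test gave p = 0.1, the smallest that 3 against 3 libraries allow (0.133 after Benjamini-Hochberg adjustment over the 4 ratios). The ratio of Mmp2 to Timp2 was -7.05 ± 0.80 in macrophages and -6.40 ± 0.19 in osteoclasts (mean log2 ± SD, n = 3). Its difference of 0.65 did not exceed the spread (exact permutation p = 0.4), and was 1.10 without macrophage library 1, 0.35 without library 2 and 0.49 without library 3.

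**Figure D4:**
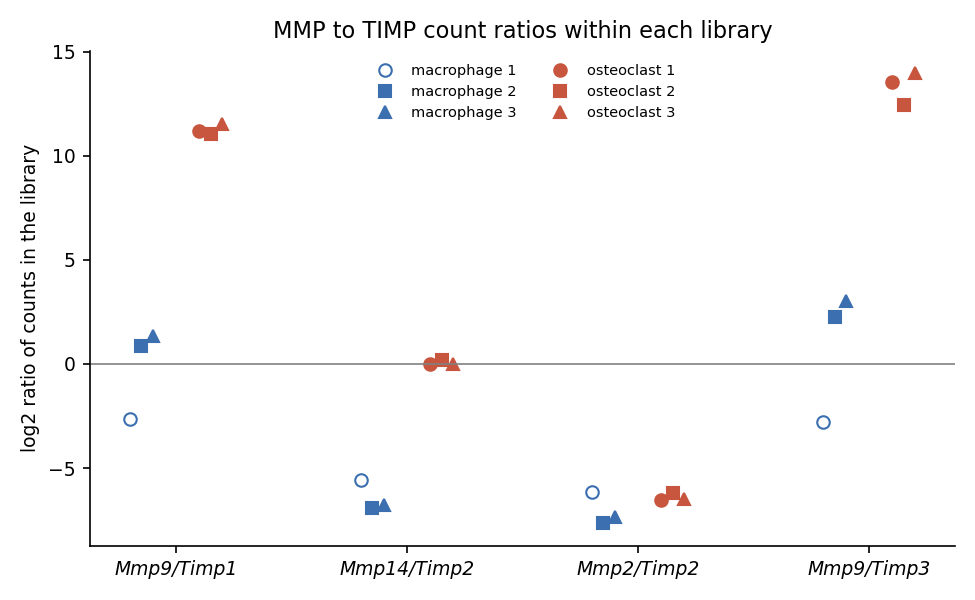
log2 ratio of the counts of an MMP to those of a TIMP within each library, for 4 pairs; blue marks macrophages, red osteoclasts and the open circle macrophage library 1. The Mmp14 to Timp2 ratio is near 0 in all 3 osteoclast libraries and between -6.92 and -5.56 in macrophages, and the Mmp2 to Timp2 values of the groups overlap.

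Along the chromosome 9 cluster the genes with a row were, in order, Mmp13, Mmp12, Mmp3, Mmp10, Mmp8 and Mmp27. Mmp27, 2.91 kb beyond the end of Mmp8 and less studied than its neighbours, had 61, 67 and 73 counts in macrophages and 349, 361 and 518 counts in osteoclasts. It rose by 2.78 (SE 0.12, adjusted p = 1.55e-10, edgeR), less than Mmp8 on the log2 scale. Mmp10, a stromelysin, had 4, 0 and 2 counts in macrophages. It had 12, 15 and 24 in osteoclasts, whose libraries alone carried it past the filter on low counts. It rose by 3.17 (SE 0.62, adjusted p = 5.37e-04, edgeR; 4.18 without macrophage library 1 and 2.55 without library 2). Mmp3, the other stromelysin here, had 2, 0 and 0 counts against 4, 5 and 8 and did not pass the filter on low counts. The outer genes Mmp13 and Mmp12 and the pair Mmp8 and Mmp27 were well expressed in osteoclasts, whereas Mmp3 and Mmp10 between them stayed under 2 CPM.

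**Figure D5:**
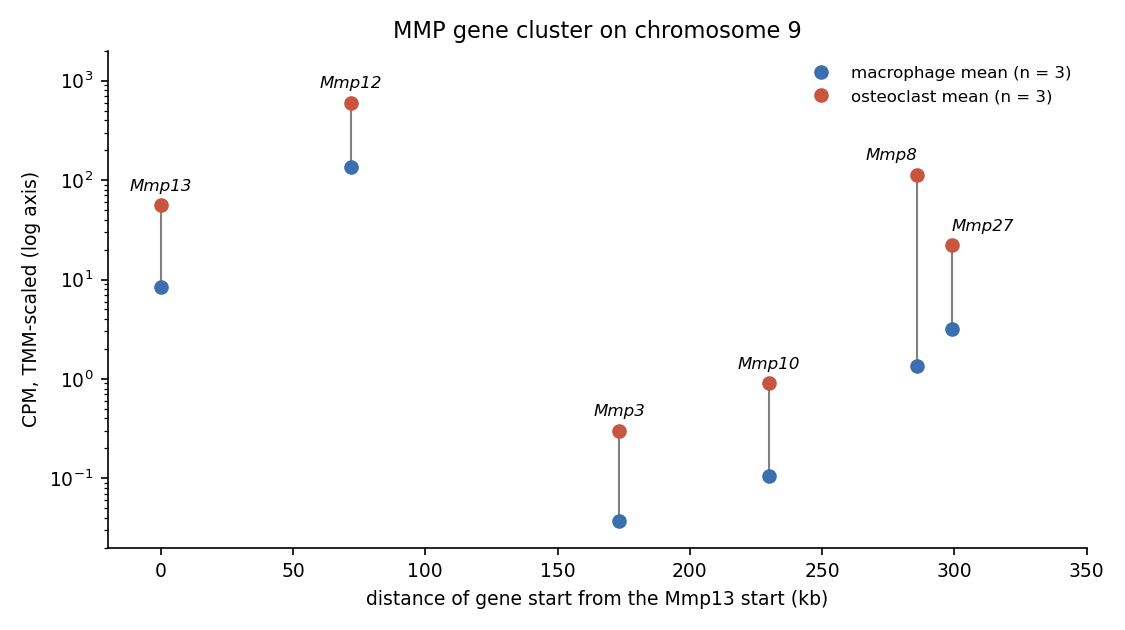
Mean level of the MMP genes of the chromosome 9 cluster in macrophages (blue) and osteoclasts (red), n = 3 each, in CPM on a log axis, against the distance of the gene start from that of Mmp13 in kb. All 6 genes are higher in osteoclasts, and Mmp3 and Mmp10 stay lowest.

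Outside the cluster the rest of the family was near the limit of detection. Of 17 further MMP and TIMP genes listed, 12 had a row and 3 passed the filter: Mmp10 and Mmp27, which rose, and the membrane-type Mmp25, which did not pass the test (log2 fold change 0.94, adjusted p = 0.211). The other membrane-type genes Mmp15, Mmp16, Mmp17 and Mmp24 had between 0 and 5 counts in each library. Mmp14 was therefore the one membrane-type MMP gene above 2 CPM in any of these libraries.

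Of 12 listed partners of MMPs, at the cell surface or acting on MMPs, 9 were tested, 5 rose and 4 fell (32.3% and 31.4% of all genes tested), with a median log2 fold change of 0.14 (2 rose on the deposited scale). Itgb3, an integrin subunit of the osteoclast attachment zone, rose from 11.7 ± 0.841 to 154.0 ± 18.2 CPM (mean ± SD, n = 3), by 3.73; it is also one of the 9 osteoclast markers. Lrp1, an endocytic receptor for MMP and TIMP complexes, fell from 4634 ± 228.6 to 2639 ± 197.9 CPM, by -0.81. Reck, a membrane-anchored MMP inhibitor, had 22 to 34 counts in macrophages and 5 to 10 in osteoclasts, a change of -1.62 (adjusted p = 2.17e-03, edgeR). Without macrophage library 1 the change of Reck was -1.29 (adjusted p = 0.0126, edgeR). Itgav, the alpha subunit that pairs with the product of Itgb3, fell by 1.00. Furin, the convertase that activates MMP14, fell by 0.29, and Bsg, an inducer of MMPs also called EMMPRIN, rose by 0.81.

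The plasminogen system, which makes plasmin, an activator of several MMP precursors, had 8 of 10 genes tested, of which 6 rose and 1 fell, against 32.3% and 31.4% of all genes tested (median log2 fold change 1.26). The activator gene Plau, which encodes urokinase, fell from 665.1 ± 44.5 to 109.0 ± 1.15 CPM, by -2.61, and its receptor Plaur rose from 45.8 ± 1.08 to 182.5 ± 7.61 CPM, by 2.00. Of the genes for inhibitors of urokinase, Serpinb2 had 45, 2 and 0 counts in macrophages and 1665 to 2584 in osteoclasts and rose by 7.23, a fitted value that went to 11.13 without macrophage library 1, 6.64 without library 2 and 6.62 without library 3. Serpine2 rose by 4.02, and by 4.92 without macrophage library 1. Plg, which encodes plasminogen itself, had 1 count in 1 library.

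The ADAM and ADAMTS families, whose members are not all active proteinases, include some metalloproteinases that TIMPs also inhibit. Of 19 genes listed 10 were tested, with 4 higher and 4 lower, against 32.3% and 31.4% of all genes tested. Their median log2 fold change was -0.10 (2 higher on the deposited scale). The largest change was in Adam23, from 1 to 4 counts in macrophages to 72 to 95 in osteoclasts, by 5.25. Adamts4, an aggrecanase, had 4 to 8 counts in macrophages and 16 to 25 in osteoclasts and rose by 1.99. Adam23 and Adamts4 passed the filter on low counts only through their osteoclast libraries. Adam33 rose by 0.63 and Adamts10 fell by 0.41, while the Adam33 estimate on the deposited scale was 0.45 and did not pass (adjusted p = 0.0527). Adam9 and Adam22 did not pass (-0.06 and -0.42). Adam8, abundant in both groups, fell by 0.13, a call lost without macrophage library 1 (-0.10). Adam17, a sheddase that TIMP3 inhibits, rose by 0.22, about the size of the scaling shift given above.

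Among 15 transcription factor genes known to act on MMP promoters, 14 were tested, 9 rose and 3 fell, against 32.3% and 31.4% of all genes tested, with a median log2 fold change of 0.39 (5 fell with equal totals). The AP-1 genes Fosl1 and Fosl2 rose by 2.51 and 2.00, Fos by 1.06 and Junb by 1.08, and Fosb fell by 2.38 (3.03 without osteoclast library 1). Within the ETS family Ets2 rose from 117.9 ± 9.51 to 590.8 ± 17.7 CPM, by 2.33, and Ets1 fell from 22.5 ± 1.20 to 4.04 ± 0.313 CPM, by -2.48. Rela and Nfkb1 of the NF-kB family did not pass (-0.09, adjusted p = 0.054, and -0.01, adjusted p = 0.815, edgeR). Whether any of these acts on the MMP genes was not tested.

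The genes most like Mmp9, Mmp14 and Timp2 were taken by the root mean square difference between gene-centred log2 CPM profiles over the 6 libraries, among 8728 genes with a mean of at least 10 CPM; with 2 groups this likeness mostly reflects the size of the change. Nos2 (0.72), Marco (0.89) and Slpi (0.98 log2 units) were nearest to Mmp9. Tarm1 (0.35), Ptges (0.38) and Mefv (0.41 log2 units) were nearest to Mmp14. For Timp2 the nearest were Rcan1 (0.028), Thra (0.034) and Tdg (0.035 log2 units).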

How the data were processed

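Whole-number values per gene symbol were deposited in 1 mouse table that the authors named as normalized counts. They were treated as raw counts: totals differ between libraries, and small whole numbers are evenly filled (chi-square per degree of freedom from a smooth curve 0.761 to 1.11, against 1.94 to 3.60 after lowering or raising them by 3% and rounding). The submitters' processing notes name mm10 and hg19 as builds, and featureCounts 1.6.2 and STAR 2.6.0c as tools, without saying what each was used for, and no source used here states strand. Groups came from the sample source label, and replicate numbers from the titles. Counts were filtered with filterByExpr, scaled with TMM and put through edgeR 4.0.16 (R 4.3.3; quasi-likelihood test), group as the only term, two-sided, Benjamini-Hochberg adjusted, threshold 0.05; a standard error is the absolute fold change over the square root of F. The gene test was also run on simulated counts, in which all genes shared the same dispersion and no library deviated. That setting differs from these data, and no result above rests on it. Pseudocounts of 0.5 counts entered the within-library ratios, tested exactly with SciPy 1.17.1. Coordinates and exon lengths are from GENCODE M21 (GRCm38, the assembly of mm10), which matched 25462 of 25668 symbols; 23 symbols that look like dates stayed in as rows. Alternatives were DESeq2 1.42.0, limma 3.58.1, other scalings, no filter, a replicate block and single libraries left out; leaving out macrophage library 1 and osteoclast library 2 together was added after seeing the data. Named genes are the 10 members, the 4 called genes with the largest change in each wider list, and the 3 nearest profiles; further list members were named after their values were seen. Members and lists were chosen with earlier results of these data known. Replicate pairs all differed by more than counting noise. Chi-square per degree of freedom was 32.5 and 36.4 for the pairs with osteoclast library 2, and 2.46 to 5.50 for the other pairs. The values of 1 gene of the plasminogen list are not reported here.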

Additional observations from a re-analysis of the deposited data

How the results depend on the processing

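Of the 10 genes, Mmp9, Mmp14, Mmp8, Mmp12, Mmp13 and Mmp19 kept their direction and stayed past the threshold in all 13 alternative fits. Mmp2 did not pass with DESeq2 (0.99), Timp2 not on the deposited scale (0.34), and Timp3 passed as lower on the deposited scale (-2.24) and without a filter on low counts (-2.18). Timp1 turned positive with limma (0.32), with the replicate block (0.32) and with both macrophage library 1 and osteoclast library 2 left out (1.73), and Timp3 in the last of these (0.83). Without single libraries Mmp2 ran from 0.72 to 1.68, Timp1 from -0.72 to 1.81 and Timp3 from -2.74 to 1.35, and 7 to 10 of the 10 genes were called higher and 0 to 1 lower; 1 was called lower on the deposited scale and without a filter. Over all genes 2625 were called higher and 6445 lower with equal totals and 1800 higher on the deposited scale, there with 2 MMP partners and 2 ADAM or ADAMTS genes higher, while 5 transcription factors fell with equal totals. These changes come with the scaling, the filter or the libraries left out; the cause was not tested. Of 234 alternative values of the 18 named genes of the wider lists, 233 kept direction and side of the threshold. Deviations of same-numbered libraries were weakly and positively correlated (0.035, 0.0383 and 0.0957). For differently numbered libraries the correlations ran from -0.102 to 0.0506. The replicate block called 4237 genes higher and 4114 lower, against 4281 and 4162, with 8 of the 10 genes higher in both. Depth limits Timp3, Mmp10 and Mmp3, whose counts are low in nearly all libraries.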
